A study of Homo sapiens with 12 samples.

Results

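The m6A landscape described here is that of control Kasumi-1 cells, a human acute myeloid leukaemia line with the RUNX1-RUNX1T1 fusion. Its members were all rows of the deposited list that sets m6A immunoprecipitated (IP) RNA against input RNA in these cells, 35341 peaks of the 71192 in the series. The other 35851 peaks belong to cells in which WTAP, a subunit of the enzyme complex that writes m6A, was silenced. Each peak came with a gene, an annotation as 5' UTR, exon or 3' UTR, exonic blocks, a fold enrichment of IP over input and a false discovery rate, and was set beside the mean FPKM of that gene over the 3 control inputs (FPKM is a fragment value scaled to transcript length and library size).

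The series held 12 libraries in 4 groups of 3, called biological replicates in the labels: control IP, control input, shWTAP IP and shWTAP input. Control cells were labelled WT and carried a scrambled short hairpin RNA (shRNA), and the shWTAP cells carried an shRNA against WTAP. In both, puromycin at 2 µg/ml was added 48 h after the shRNA and kept for at least 24 h, so the control is not an untouched Kasumi-1 culture. A lentiviral vector is stated for the shRNA against WTAP. The selected cells were a pool, not described in the labels as a clone, and poly(A) RNA was fragmented before the antibody step. With 1 list for the 3 control IP and 3 control input libraries, a peak has no replicate, and the intervals below cover counting error only.

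N6-methyladenosine is the most abundant internal modification of mRNA. A nuclear complex of METTL3, METTL14, WTAP, VIRMA, ZC3H13, RBM15 and CBLL1 writes it, FTO and ALKBH5 can remove it, and reader proteins of the YTH family bind it and alter the splicing, translation or decay of the RNA. It is known for clustering near stop codons and in 3' UTRs, at an adenosine in contexts such as GGAC. Antibodies to m6A also bind a related mark of the first transcribed base, m6Am, which PCIF1 adds where that base is an adenosine next to the cap.

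The 3 control inputs correlated at r = 0.988 to 0.991 across genes on the log scale, and the median coefficient of variation of a gene at 1 FPKM or more was 7.45%. They differed in mitochondrially encoded mRNA, which took 0.306%, 0.310% and 0.634% of the FPKM total in control 1, 2 and 3. Their sequencing depth is unknown. All 10 markers of a myeloid leukaemia blast were at 1 FPKM or more, with a sum of 2297 to 2347 FPKM per library, led by MPO and KIT. Of the other lists, 1 of 4 T cell markers (CD3D, 50.2 FPKM), 1 of 4 epithelial markers (EPCAM, 41.5 FPKM) and 2 of the 3 B cell markers in the table (PAX5, 2.66 FPKM, and CD79A, 1.98 FPKM) reached 1 FPKM. Their partners CD3G and CDH1 were at 0 and at 0.0421 FPKM, none of the 4 fibroblast or of the 3 monocyte markers in the table reached 1 FPKM, and the part of other cells was not tested.

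The strongest peaks were annotated 5' UTR. Among genes with a mean of at least 5 FPKM, the highest fold enrichment was that of CAPNS1, the small regulatory subunit of calpain, at 749 for a 5' UTR peak of 448 exonic bases. SENP3, a SUMO protease, followed at 695, GNB1, a G protein beta subunit, at 512, and DHX36, a helicase that unwinds G-quadruplexes, at 501. PRRT4 at 364, CNOT6 (a deadenylase of the CCR4-NOT complex) at 334, MAML3 (a Notch coactivator) at 332 and ZBTB47 at 320 were next, and all 8 were annotated 5' UTR. The highest 3' UTR peak of this expression class, ZBTB5 at 319, also reached the start of its gene.

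Because the antibody binds a mark of the first transcribed base as well, 30 bases around the start are shown for 8 of these genes, 15 before it and 15 from it. They were chosen after their values were seen, 4 that start with A and 4 that do not. The letters are RefSeq's on GRCh38.p14, in the direction of transcription, and the capital marks the first transcribed base of the listed start. The minus strand holds GNB1 (chr1:1891073-1891102), DHX36 (chr3:154324473-154324502), MAML3 (chr4:140154170-140154199) and ZBTB5 (chr9:37465436-37465465). The plus strand holds ZBTB47 (chr3:42653682-42653711), CAPNS1 (chr19:36140975-36141004), SENP3 (chr17:7561904-7561933) and CNOT6 (chr5:180494364-180494393).
GNB1: tccgaggctgcgggcAggggcccgccgcgc
DHX36: aacggaagtgggcgcAcagtggcttccggg
MAML3: gcgcgtcctgatatcActccgctggcatgg
ZBTB47: ctgagcaagggggccActcagcagtggtca
CAPNS1: tggtccccttttttcCccccagcagtgagt
SENP3: cgctcttcgccgggtGtgacgtactaatcg
CNOT6: gggcgctcgctggctGagggacggcggccg
ZBTB5: gcgctcttgcattacGtcacttccgcttat
Their mean levels lay between 5.88 (ZBTB47) and 55.0 FPKM (GNB1). GNB1 had 57.4, 55.3 and 52.4 FPKM in the 3 control inputs, DHX36 had 7.47, 7.24 and 8.63 FPKM, and CAPNS1 had 34.3, 34.6 and 31.9 FPKM. Within each gene the libraries lay close together, so the level set beside its peak did not hang on a single library.

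Across all expressed genes, a start that lay in a peak began with A more often than one that did not. RefSeq's promoter table listed 11661 starts for 8103 symbols at a mean of 1 FPKM or more, and 4050 of these starts lay in a control peak. The first base was A at 50.1% of them (95% Wilson interval 48.6 to 51.7%), against 42.5% (41.3 to 43.6%) of the 7611 other starts. Those others had A first at 43.4% (42.1 to 44.7%) on genes with a peak elsewhere and at 39.5% (37.2 to 41.7%) on genes with none. C stood first at 10.7% of starts in a peak against 13.6% of all others, and G at 38.0% against 42.0%. In genes with 1 listed start the shares with A were 50.5% in a peak and 40.7% outside one. Starts in 5' UTR peaks had A first at 50.9%, those in 3' UTR peaks at 49.9% (46.03 to 53.8%) and those in exon peaks at 40.6% (34.7 to 46.8%), so the higher share was not seen in exon peaks.

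Within FPKM classes the share with A was again higher for starts in a peak. It was 48.8% against 44.6% from 1 to 5 FPKM, 52.6% against 43.2% from 5 to 10 FPKM and 49.6% against 40.6% from 10 to 50 FPKM. From 50 to 100 FPKM it was 55.4% against 38.6%, and in the class of 100 FPKM or more it was 45.8% against 28.4% with overlapping intervals. The first 50 transcribed bases held 66.6% G and C for starts in a peak and 64.7% for the others. The m6A context GGAC, searched in the same 50 bases on the transcribed strand, was in 19.7% of all 11661 windows, in 20.9% (19.7 to 22.2%) of starts in a peak and in 19.1% (18.2 to 19.99%) of the others, and its reverse complement GTCC in 18.6% and 19.9%. A match in this window is a description and not a site, several starts can belong to 1 gene, and the part of m6Am in these peaks was not tested.

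**Figure D1:**
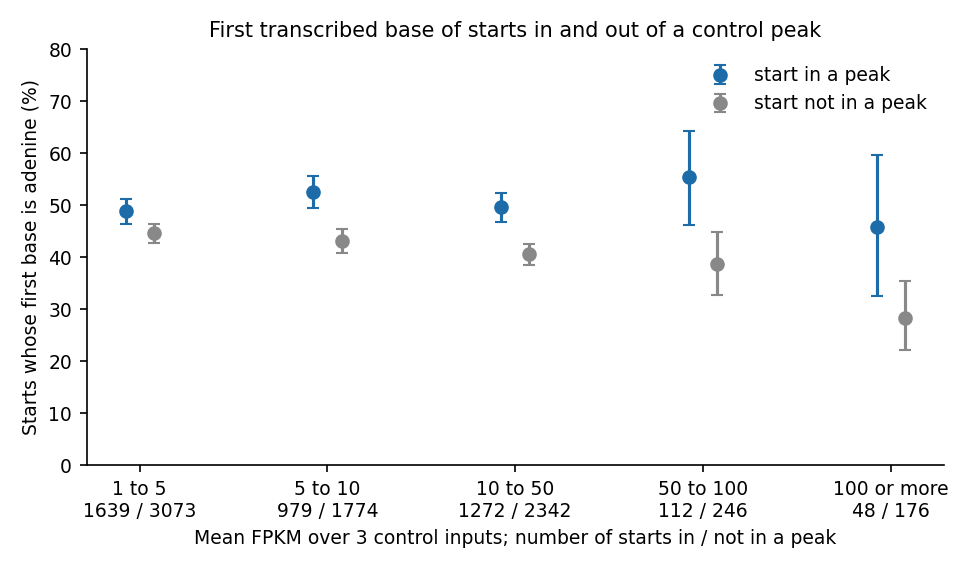
Share of transcription starts whose first base is adenine (y axis, %), for starts in a control peak (blue) and not in a peak (grey), by the mean FPKM of the gene over 3 control inputs (x axis). Bars are 95% Wilson intervals, and the share is higher for starts in a peak in every class, with overlapping intervals in the class of 100 FPKM or more.

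A second set of sequences comes from microRNA hairpins, which lie within longer transcripts that can carry m6A before they are cut. Of the hairpins in RefSeq's table, 56 lay wholly within the blocks of a control peak. Among them, at a false discovery rate of 0.01 or less, were 3 loci known in blood cells, whose mature strands are shown with the seed (bases 2 to 8) in capitals, from RefSeq on GRCh38.p14.
hsa-miR-142-3p: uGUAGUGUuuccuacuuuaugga
hsa-miR-142-5p: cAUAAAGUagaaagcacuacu
hsa-miR-223-3p: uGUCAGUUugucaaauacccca
hsa-miR-223-5p: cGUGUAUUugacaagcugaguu
hsa-miR-24-3p: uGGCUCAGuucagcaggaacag
hsa-miR-24-2-5p: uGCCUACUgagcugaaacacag
No seed was shared between these strands. MIR142, a microRNA of blood cells, lay at chr17:58331232-58331318 in an exon peak of 1625 bases with a fold enrichment of 79, assigned to the noncoding gene AC004687 at 7.39 FPKM. MIR223, which limits granulocyte progenitors in mice, lay at chrX:66018870-66018979 in a peak of the same 110 bases with a fold of 2.42, inside MIR223HG at 65.0 FPKM. MIR24-2 lay at chr19:13836287-13836359 in a peak of 301 bases with a fold of 9.02. GGAC was in 28.6% (18.4 to 41.5%) of the hairpins within a peak and in 27.3% (25.1 to 29.6%) of the other 1506, so hairpins in peaks did not differ from the rest in this motif beyond counting error. The lists do not tell a mark on the hairpin from a mark elsewhere in the same peak.

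The 3' UTR was the most frequent annotation. It held 16537 peaks, 46.8% of the list (46.3 to 47.3%), against 12124 exon peaks (34.3%) and 6680 5' UTR peaks (18.9%). By exonic bases its share was 54.2%, since 3' UTR peaks were longer, with a median of 511 bases against 389 for exon peaks and 331 for 5' UTR peaks. Over all peaks the median was 421 exonic bases (quartiles 211 and 839), 58.6% of peaks were 1 block, and the median fold enrichment was 6.77 (quartiles 3.3 and 11.3, range 1.08 to 791).

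The 3' UTR share depended on how certain a peak was. It was 32.5% among the 7962 peaks with a false discovery rate above 0.01, 37.9% from 0.01 to 1e-10, 50.8% from 1e-10 to 1e-50 and 69.4% (68.4 to 70.3%) among the 8556 peaks at 1e-50 or less. Exon peaks went the other way, from 47.1% to 18.3%. Fold enrichment gave no such order, with a 3' UTR share between 44.6% and 53.1% in every fold class. The 127 peaks with a fold of 100 or more stood apart in holding 40.9% (32.8 to 49.6%) 5' UTR peaks, against 20.3% of those from 20 to 100.

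**Figure D2:**
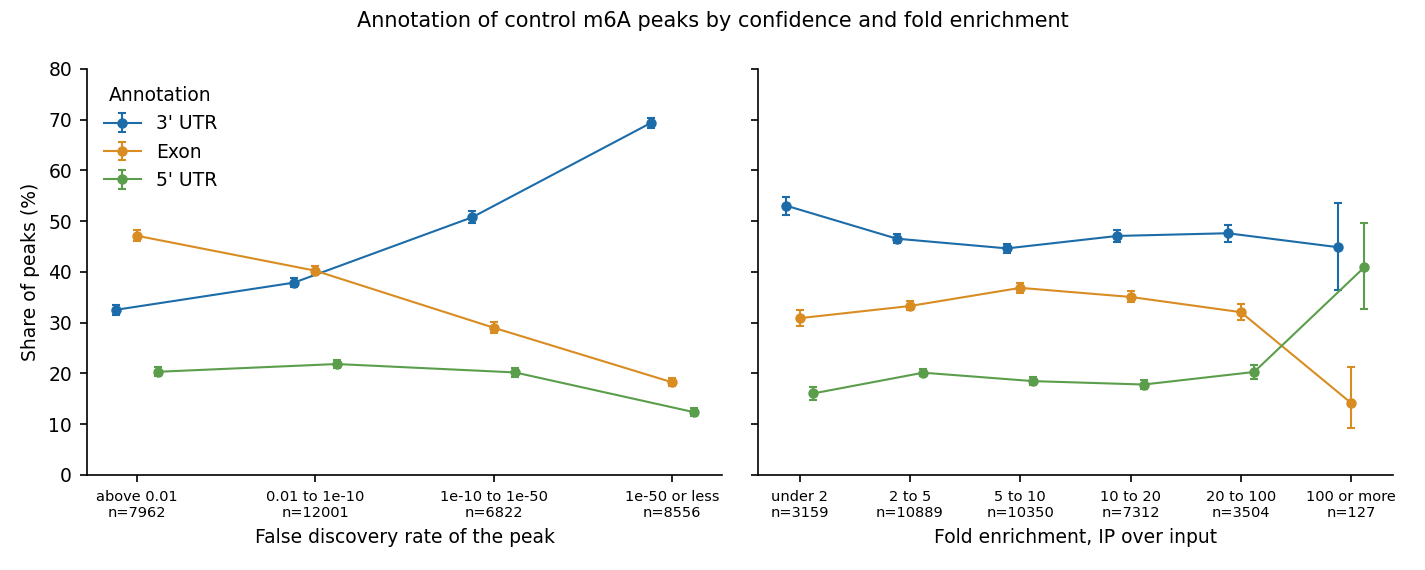
Share of control peaks (y axis, %) annotated 3' UTR (blue), exon (orange) or 5' UTR (green), by the false discovery rate of the peak (left) and by its fold enrichment (right), with 95% Wilson intervals and the number of peaks in each class below the axis. The 3' UTR share climbs from 32.5% to 69.4% with certainty, and the 5' UTR share reaches 40.9% in the highest fold class.

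The annotation names the part of a transcript that a peak was labelled with, which was not always where its bases began. Of the 3' UTR peaks, 21.6% had a distance of 0 to a transcription start in the deposited list, against 85.5% of the 5' UTR peaks. BCL2, the antiapoptotic protein, showed this. It had 14.3, 15.6 and 17.7 FPKM and 2 peaks annotated 3' UTR, of which the stronger (69.6-fold, 2875 bases, chr18:63317254-63320128) ended at the first base of this minus-strand gene and the weaker (20.8-fold, chr18:63126729-63313962) had 3 blocks spread over most of the gene. Peaks could also overlap, since 7745 of them (21.9%) shared exonic bases with another peak of the list.

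Of the exon peaks, 41.1% were on protein-coding genes and 14.01% on genes that RefSeq names lncRNA. Of the 1982 peaks on lncRNA genes 85.7% were annotated exon, against 20.03% of the 24913 on protein-coding genes. NEAT1, the scaffold RNA of paraspeckles, had 22.2, 21.5 and 24.4 FPKM and an exon peak of 2608 bases at a fold of 212 (chr11:65422798-65425405). A nearly identical interval of NEAT1 was listed again at 178-fold, so these count as 1 region. MALAT1, a nuclear lncRNA in which m6A sites are well described, had 66.8, 62.0 and 74.6 FPKM and peaks of 12.4-fold (690 bases) and 8.32-fold (2275 bases). LINC00662 carried the most peaks of any gene, 31 at a mean of 1.38 FPKM, and KCNQ1OT1 had 16. CCDC26 was assigned 22, of which 14 overlapped its own span. PCDHGC3, with 24 peaks, was listed at 0 FPKM in all 3 inputs.

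Peaks were most frequent on genes of middle expression. Of 11281 genes at 1 FPKM or more, 8705 had an assigned peak, 77.2% (76.4 to 77.9%), with a median of 2 peaks per gene. The share was 27.9% under 0.1 FPKM and 56.8% from 0.1 to 1 FPKM, reached 80.6% (79.0 to 82.1%) from 5 to 10 FPKM, and was 68.2% (63.0 to 72.9%) from 50 to 100 FPKM and 57.4% (50.9 to 63.6%) at 100 FPKM or more. Of the 200 genes highest in FPKM, 65 were ribosomal protein genes, a family with a peak on 47.6% of its genes. Their part in the lower share at the top was not tested. The fall at the top was larger than the counting intervals. It was also present when any peak in the span of the gene counted (88.2% from 5 to 10 FPKM against 60.9% at the top) and when a peak counted only where it overlapped its own gene and no other (65.8% against 40.9%).

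Fold enrichment was lower on abundant transcripts. The median fold of a peak was 7.9 under 0.1 FPKM, 6.02 from 1 to 5 FPKM, 4.51 from 10 to 50 FPKM and 3.67 at 100 FPKM or more, and across expressed genes with a peak the strongest fold and the mean FPKM had a Spearman rho of -0.18 (a description across genes, which share the same libraries and depth). The same few fold values recurred in the list. The most frequent was 6.77, carried by 1644 peaks, then 7.9 by 1246, 9.02 by 916 and 10.2 by 818 peaks, and these are whole multiples of a step of 1.128 after rounding to 3 digits. Values equal to 2 to 17 such steps made up 28.6% of all peaks, 52.1% under 0.1 FPKM, 14.5% from 10 to 50 FPKM, and 64.2% at a false discovery rate above 0.01 against 7.62% at 1e-10 or less. Without them the median fold was 6.09 under 0.1 FPKM, 5.08 from 1 to 5 FPKM, 3.92 from 10 to 50 FPKM and 3.16 at 100 FPKM or more. The fall was not unbroken, since the median was 6.2 from 0.1 to 1 FPKM and 2.84 from 50 to 100 FPKM without these values. A repeated value may rest on a fixed floor in the input and not on a measured ratio, which cannot be told without read counts. Such folds, 6.77, 9.02, 12.4 and 15.8 among those printed, are thus given only as listed. Multiples above 17 steps were not searched, so the same doubt can hold for higher folds.

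**Figure D3:**
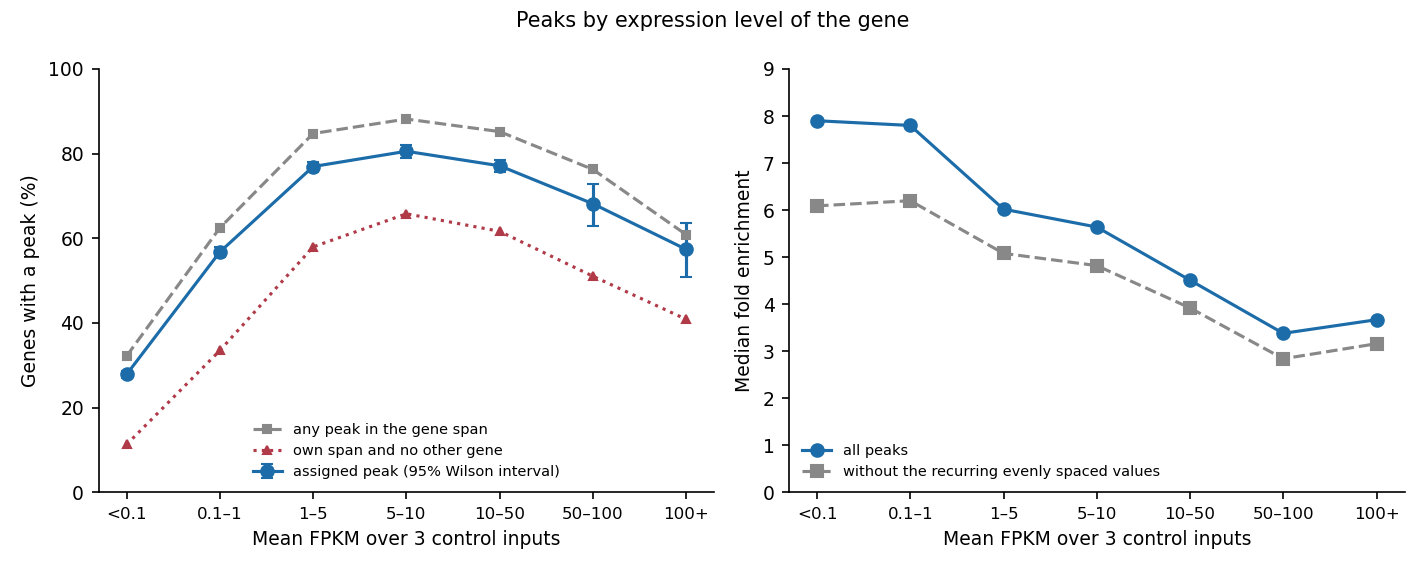
Left, share of genes with a control peak (y axis, %) by mean FPKM over 3 control inputs, for peaks assigned to the gene (blue, 95% Wilson intervals), any peak in its span (grey) and peaks that overlap that gene and no other (red). Right, median fold enrichment of all peaks (blue) and of peaks without the recurring evenly spaced values (grey). The share peaks at 80.6% from 5 to 10 FPKM and is 57.4% at 100 FPKM or more.

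The most abundant transcripts were split between those with and those without a peak. Of the 50 genes highest in FPKM, 25 had no assigned peak and 23 of these had none anywhere in their span. EEF1A1, the elongation factor that brings tRNA to the ribosome, had 2505, 2575 and 2467 FPKM and 4 peaks, the strongest 12.4-fold in the 5' UTR. MPO, the myeloperoxidase of granulocyte precursors, had 1403, 1416 and 1296 FPKM and 2 weak peaks of 2.72 and 1.35-fold. ACTB had 536, 529 and 529 FPKM and 2 peaks of 2.47-fold each, at the 5' UTR and the 3' UTR. CALR, a chaperone of the endoplasmic reticulum, had 804, 763 and 736 FPKM and 1 3' UTR peak of 7.44-fold.

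No peak was assigned to, or lay in the span of, GAPDH at 1222, 1232 and 1122 FPKM. The same held for KIT, the receptor tyrosine kinase of progenitor cells that is mutated in this line, at 701, 716 and 778 FPKM. HSP90AB1 (629, 629 and 676 FPKM), FTL, the ferritin light chain (633, 651 and 650 FPKM), and PABPC1, the poly(A) binding protein (483, 477 and 499 FPKM), also had none. For these 5 genes the list after WTAP silencing held no peak in the span either. An absent row shows only that no interval passed the p of 0.05 that is the highest in the list.

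**Figure D4:**
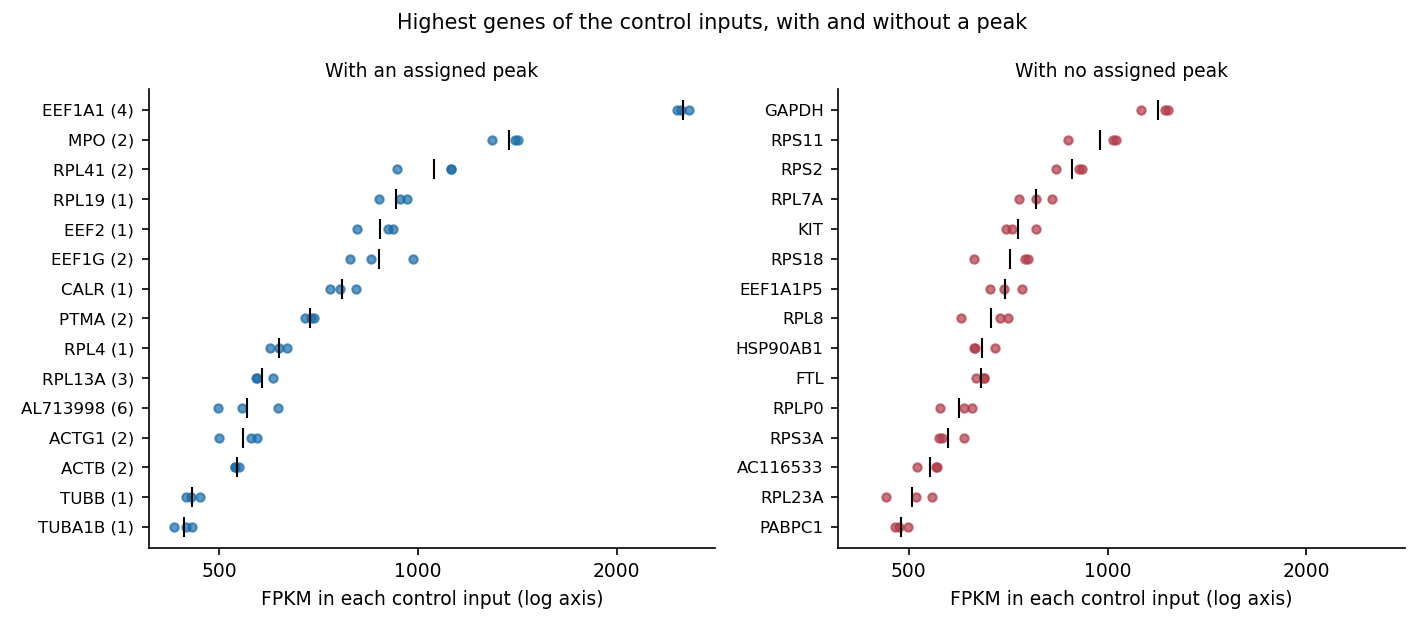
FPKM in each of the 3 control inputs (points, log axis) with the mean (black tick) for the 15 highest genes with an assigned control peak (left, number of peaks in parentheses) and the 15 highest without one (right). Both sets cover similar levels, from GAPDH, KIT and ribosomal protein genes on the right to EEF1A1 and MPO on the left.

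Gene lists differed in how often they carried a peak, and each is set beside all genes in the same FPKM classes, which carried one at 60.2 to 78.8%. Cytosolic ribosomal proteins were low by assigned peaks, with 40 of 84 genes (47.6%, 37.3 to 58.2%, against 60.2%, a share that includes these genes themselves). Any peak in the span gave 48 of 84 (57.1%), and peaks on that gene alone gave 35.7%. All genes at 100 FPKM or more had 57.4%, 60.9% and 40.9% by the same counts in that order. The size of the shortfall thus depended on how peaks were assigned. The median strongest fold of ribosomal proteins was 4.32, near the 4.825 of all genes at 100 FPKM or more. Nuclear-encoded subunits of the respiratory chain had a peak on 45 of 76 genes (59.2%, 47.98 to 69.6%, against 75.8%), with ATP5F1B (383 FPKM) and COX8A (86.7 FPKM) among those without. Translation factors had 17 of 27 (63.0%, 44.2 to 78.5%, against 68.4%), an interval that includes the genes at their level, and EIF4B (215 FPKM) and EEF1B2 (276 FPKM) had none. Proteasome subunits (28 of 37), blood cell receptors and surface proteins (14 of 18) and myeloid granule proteins (10 of 14) lay within 3 percentage points of the genes at their level.

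Regulatory genes were high. ZNF zinc finger genes, mostly repressors of transcription, had a peak on 269 of 294 (91.5%, 87.7 to 94.2%, against 77.8%), with ZNF316 at 410-fold and ZNF182 at 214-fold. Chromatin modifiers had 53 of 58 (91.4% against 77.9%) and 4.58 peaks per gene with a peak, where all genes had 2.39. ARID1B, a subunit of the SWI/SNF remodeller, had 8 peaks up to 102-fold at 1.78 FPKM, and its paralogue ARID1A had 5 up to 57-fold at 15.4 FPKM. EZH2, the methyltransferase of Polycomb, had none at 27.4, 24.8 and 29.1 FPKM, nor had HDAC1 at 29.1, 28.0 and 28.5 FPKM. The list after WTAP silencing held 1 peak assigned to each of them, so they lacked one only in the control list.

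Blood transcription factors had a peak on 26 of 27 genes (96.3%, 81.7 to 99.3%, against 77.1%). CEBPA, which drives granulocyte differentiation, had 3.03, 2.78 and 3.07 FPKM and an 88.3-fold peak of 1734 bases in its single exon. TAL1 reached 79.9-fold, CEBPE 45.6-fold and CBFB, the partner of RUNX1, 40.6-fold. RUNX1 had 23.2, 22.6 and 25.6 FPKM and 8 peaks of 1.65 to 10-fold, and RUNX1T1 17.7, 17.02 and 18.2 FPKM and 2 peaks of 1.58 and 10.7-fold. These 2 genes form the fusion of this cell line, and gene-level values do not tell the fusion transcript from the normal ones. ERG, at 22.4 FPKM, was the member without an assigned peak, although 1 peak assigned elsewhere lay in its span.

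Signalling inhibitors had a peak on 21 of 22 genes (95.5%, 78.2 to 99.2%, against 78.0%), with CISH, which damps cytokine signalling, at 53.9-fold. Cholesterol synthesis genes had one on 24 of 25 (96.0%, 80.5 to 99.3%, against 77.2%). With any peak in the span the count was the same, and its interval includes the 84.9% of all expressed genes. With peaks on that gene alone it was 76.0%, where all expressed genes had 60.2%. Immediate early genes had one on 15 of 17 (88.2%, 65.7 to 96.7%, against 78.1%) and aminoacyl-tRNA synthetases on 18 of 20 (interval 69.9 to 97.2%, against 73.4%), with intervals that include the genes at their level. The 13 mitochondrially encoded mRNAs had 11 peaks on 9 genes (69.2% against 70.3%), all annotated exon and up to 9.46-fold. The counts over lists describe these genes and were not tested.

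**Figure D5:**
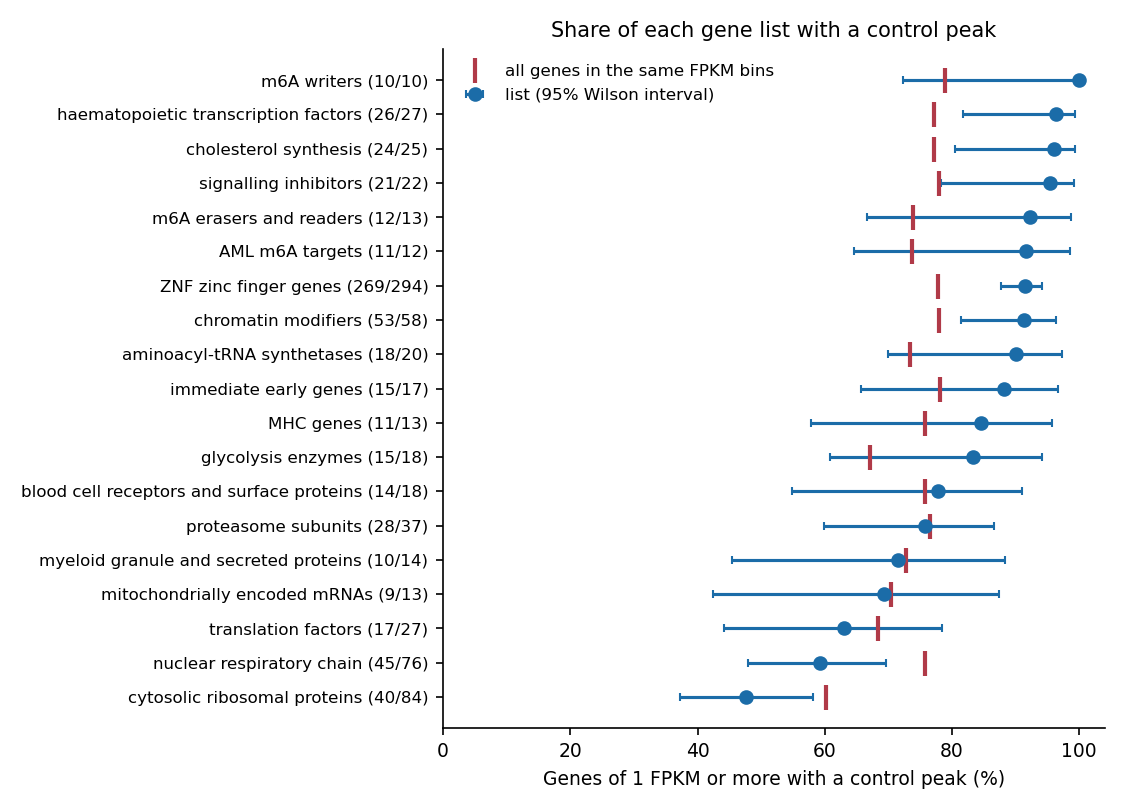
Share of the genes of each list at 1 FPKM or more that have a control peak (x axis, %; blue, with 95% Wilson interval and counts after the name) and the share over all genes in the same FPKM classes (red tick). By assigned peaks, zinc finger genes, chromatin modifiers, blood transcription factors and cholesterol synthesis genes lie above their tick. Ribosomal proteins and the nuclear respiratory chain lie below it.

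The genes of the m6A machinery did not stand apart from others at their level beyond counting error. All 10 writer genes had a peak, PCIF1, the m6Am writer, included (interval 72.2 to 100%, against 78.8% of genes in the same FPKM classes). METTL3, the catalytic subunit, had 7.23, 7.44 and 7.84 FPKM and 1 peak, in the 5' UTR at 4.07-fold, and METTL14, which holds the RNA, had 4.61, 4.18 and 4.98 FPKM and a 3' UTR peak of 10.8-fold. WTAP had 11.5, 11.2 and 11.7 FPKM and 1 weak 5' UTR peak of 2.33-fold over 181 bases. RBM15, which guides the complex to its sites, had a 25.9-fold peak of 3892 bases, and ZC3H13 had 7 peaks of 3.32 to 7.52-fold. The strongest peaks of the remaining writers were between 9.28-fold (VIRMA) and 17.3-fold (METTL16).

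Of 13 erasers and readers at 1 FPKM or more, 12 had a peak (92.3%, 66.7 to 98.6%, against 73.9%). ALKBH5 had 3 peaks up to 10.1-fold at 16.8 FPKM, and FTO 2 peaks up to 2.88-fold at 1.99 FPKM. YTHDF2, the reader that speeds decay, had 18.1, 18.3 and 17.2 FPKM and 5 assigned peaks, of which 3 lay in its span, the strongest 13-fold. YTHDF1 and YTHDF3 reached 8.22 and 12.6-fold, YTHDC1 8.81-fold, and IGF2BP3, which stabilises its targets, 33.3-fold. HNRNPC, at 98.3, 97.3 and 105 FPKM, had none. MAT2A, which makes the methyl donor and is known as a METTL16 target, had 155, 148 and 168 FPKM and a 3' UTR peak of 8.11-fold.

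Among 12 expressed genes described elsewhere as m6A targets in leukaemia, 11 had a peak (91.7%, 64.6 to 98.5%, against 73.6% of genes at their level). The interval includes that share, so the count is no result about these targets. MYC had 119, 115 and 111 FPKM and 4 overlapping or adjoining peaks, each also in the span of another gene. The strongest, 15.8-fold over 989 exonic bases (chr8:127730271-127738987), began before the first base of MYC (chr8:127735434). The 5' UTR peaks of 4.38 and 4.09-fold were nearly the same interval. MYB, at 89.99, 91.8 and 93.2 FPKM, had 2 peaks of 2.06 and 1.12-fold, among the weakest. SP1 had 1 exon peak of 5.1-fold at 30.7 FPKM and RARA 4 peaks up to 17.5-fold at 1.81 FPKM.

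KDM4B, a histone demethylase, had 11 assigned peaks from 1.32 to 33.8-fold at 5.14, 5.62 and 5.34 FPKM. The most certain of them, 21-fold over 1047 bases (chr19:4960958-4962004), lay before the first base of the gene (chr19:4969113-5153598) and within UHRF1, a DNA methylation factor at 25.6 FPKM. The other 10 overlapped KDM4B itself. Its strongest, 33.8-fold over 1080 bases (chr19:5140374-5141453), overlapped no other gene.

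Such doubtful assignments were not rare. Of 32996 peaks whose gene was in the expression table, 89.1% overlapped the span of that gene, while 31.5% of all peaks overlapped several genes. The strongest peak of the list, 791-fold, was assigned to ADAMTS7 at 0.0966 FPKM and also overlapped MORF4L1, a chromatin reader at 42.8 FPKM. The only peak of RPL27 (31.2-fold, 2932 bases) lay in its neighbour RUNDC1 at 6.65 FPKM, and that of SPI1 (10.5-fold) in AC090559. Of 14548 peaks whose assigned gene was under 1 FPKM or not in the table, 5464 (37.6%) overlapped another gene at 1 FPKM or more. The lists give the strand of the assigned gene and not that of the reads, so the source transcript of these peaks cannot be told.

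Most control peaks stood in the list after WTAP silencing as well. With at least 1 shared exonic base, 29192 of 35341 were overlapped, 82.6% (82.2 to 83.0%), with 85.9% of 3' UTR, 80.6% of 5' UTR and 79.2% of exon peaks. Certainty ordered this share, from 50.8% at a false discovery rate above 0.01 through 82.7% and 97.9% to 99.9% at 1e-50 or less. Within each of these 4 classes 3' UTR peaks were overlapped least of the 3 annotations, at 47.6%, 80.7%, 97.3% and 99.88%, against 53.2%, 84.9%, 98.3% and 99.94% of exon peaks and 50.5%, 81.9%, 98.5% and 99.91% of 5' UTR peaks. The intervals of 3' UTR and 5' UTR peaks overlapped in every class, and those of 3' UTR and exon peaks did so at 1e-10 or less. There the order is within counting error. The higher overlap of 3' UTR peaks over the whole list was thus not seen at matched certainty. The list after silencing had a shorter median peak, 361 against 421 exonic bases, and 19461822 exonic bases in all against 23144290. Whether a site lost or gained m6A was not measured by these counts.

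The input libraries also show whether genes with a control peak changed in level on silencing. WTAP itself was at 6.97, 6.48 and 5.69 FPKM in the 3 shWTAP inputs, below all 3 controls, and fell by 0.76 (SE 0.08) on the log2(FPKM + 1) scale (limma, adjusted p = 0.00663). Over all 11383 genes tested, limma called 443 at an adjusted p under 0.05, 3.89%, with 1.48% higher and 2.42% lower. Of the 8788 tested genes with a control peak it called 337 (3.83%), 120 higher and 217 lower, and of the 2595 without one 106 (4.08%). A share this near the background is no result about the genes with a peak. By strength the share was 4.18% for genes whose strongest fold was under 5 and 4.08% at 20 or more, and by number 4.25% with 1 peak and 3.07% with 4 or more. The median log2 difference was -0.03 in genes with a peak and -0.02 in those without.

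The number of calls rested on single libraries. Calls among genes with a peak numbered 26, 46 and 43 without control input 1, 2 or 3, 54 and 23 without shWTAP input 2 or 3, and 2100 without shWTAP input 1. Control 3 and shWTAP 1 were the libraries with more mitochondrially encoded mRNA (0.634% and 0.631%, against 0.300 to 0.333% in the other 4), and without both, a setting chosen after the data were seen, 2381 were called. There the shares were 27.8% with and 29.8% without a peak. Where few genes were called the shares differed more, but in either direction. They were 0.265% with and 0.475% without a peak when shWTAP input 3 was left out (35 genes called in all). Without control input 1 they were 0.298% and 0.472% (38 called). With no filter on low values the order was reversed, 0.367% with and 0.217% without a peak (82 called).

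Among the called genes with a control peak, the largest rise was that of PIK3R2, a regulatory subunit of PI3 kinase. It had 0.0843, 0.0698 and 0.0603 FPKM in control and 4.67, 5.54 and 5.76 FPKM in shWTAP inputs. The rise was 2.56 (SE 0.09, limma adjusted p = 4.75e-05). It passed the filter on level only through the shWTAP inputs, the group where it was high, so this p is no independent support. Of the largest rises and falls, the others could be tested in 13 alternatives and PIK3R2 in 8. Its control peaks numbered 2, the stronger 23.7-fold, although it was nearly absent from the control inputs. ARRDC3, an alpha-arrestin with a 14.6-fold 3' UTR peak, had 4.44, 5.68 and 6.39 FPKM and then 11.2, 11.4 and 12.0 FPKM, without overlap. Its rise was 0.96 (SE 0.11, limma adjusted p = 0.00977, up to 0.0619 over 13 alternatives). CEACAM6, a surface glycoprotein of granulocytes, rose by 1.40 with a 3.83-fold peak as its strongest. CD52, S100A4 and MSMO1 completed the 6 largest rises, each lost from the calls in at least 3 alternatives.

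The 6 largest falls were on genes whose strongest peak was between 2.25 and 7.92-fold, where expressed genes with a peak had a median of 9.18-fold. This is no trait of the falls. The median was 7.555 from 10 to 50 FPKM and 4.89 from 50 to 100 FPKM. Among the largest rises, CEACAM6, CD52, S100A4 and MSMO1 also lay below 9.18-fold. Over all tested genes with a peak, 2.68% were called lower both under 5-fold and at 20 or more. MYDGF, a secreted growth factor, had 32.9, 30.8 and 29.3 FPKM in control and 9.76, 9.54 and 8.04 FPKM in shWTAP inputs, a fall without overlap, and its only peak was 2.62-fold. NEK7, a mitotic kinase, fell by 1.37 (SE 0.12, limma adjusted p = 0.00518) with a single 2.25-fold peak, and GYS1, glycogen synthase, fell by 1.01 with 2 peaks up to 3.65-fold. LRRC59, with a 6.68-fold 3' UTR peak, had 76.2, 75.3 and 75.4 FPKM and then 44.0, 35.1 and 33.8 FPKM. AREL1, a ubiquitin ligase with a 7.92-fold peak, fell by 0.98. JMJD8 fell by 1.05. MYDGF, NEK7, GYS1, LRRC59 and AREL1 were called in all 13 alternatives tried and JMJD8 in 8 of them. Of the writers, RBM15 fell beside WTAP (by 0.41, SE 0.08, limma adjusted p = 0.0397), the other 8 did not pass the test, and no eraser or reader did. Of 12 leukaemia target genes tested, only ITGA4 passed, an integrin subunit with a 12.4-fold 5' UTR peak. It rose from 24.1, 24.2 and 25.9 FPKM to 34.7, 29.7 and 31.7 FPKM (by 0.36, SE 0.08, limma adjusted p = 0.0498). Over all tested genes 3.89% were called, and counts this small are no result about these lists. The genes of these lists were not followed over the alternatives. Calls over all tested genes ranged there from 35 to 3111, so passing or not depends on the setting.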

How the data were processed

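Per the submitters' processing notes the tools were fastp, HISAT2, HOMER and ChIPseeker, without versions or roles. What called the peaks or made the FPKM values, the genome build and any pooling of replicates: not given in the sources used here. FPKM values of 27411 genes in 6 input libraries were used as the authors deposited them, and scaling to each library hides any change that all RNA shares. The authors' fold enrichment (a ratio, IP to input) only ranks and describes peaks of 1 list. A p-value per peak (at most 0.05) and scores (log10 of p and of a false discovery rate) were deposited with each list, and log10 values of -inf rank first. Starts in the lists count from 0 and are printed from 1. Of the gene symbols, 20187 matched RefSeq's table for GRCh38.p14, and 99.9% of these overlapped that gene, so its coordinates were used together with those of the lists.

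Overlaps were made with bedtools 2.31.1 on exonic blocks (at least 1 base, strand ignored). Intervals are 95% Wilson intervals. Differences between inputs, shWTAP minus control, were fitted on the log2(FPKM + 1) scale by limma 3.58.1 (R 4.3.3; trended empirical Bayes), for genes at 1 FPKM or more in at least 3 of the 6 libraries. Calls needed a Benjamini-Hochberg adjusted p under 0.05. The fit was first tested on simulated data. With 3 against 3 libraries, an exact permutation test of 1 gene cannot pass, so calls rest on this model. Log2 differences on this scale understate the change of low genes.

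The members, gene lists and tests were chosen with earlier results of these data known. The naming rule took the 10 highest folds of each annotation on genes of 5 FPKM or more, the 10 genes with most peaks, the 15 highest genes with and without a peak, all genes of the writer, reader and leukaemia target lists with MAT2A, MALAT1 and NEAT1, up to 4 members with the highest fold and 4 without a peak from other lists, and the 6 largest rises and falls. Which of these stand in the text, the recurring fold values and the sequences shown were chosen after the values were seen. Same-numbered control and shWTAP inputs were checked for pairing by the correlation of their deviations from the group means (-0.11, 0.17 and -0.14), which does not pair them.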

Additional observations from a re-analysis of the deposited data

How the results depend on the processing

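The 3' UTR share of 46.8% was 50.9% at a false discovery rate of 0.01 or less, 46.2% at a fold of 2 or more and with 1 peak per gene, 54.2% by exonic bases and 49.3% on genes at 1 FPKM or more. In settings added after the data were seen, it was 42.9% for peaks overlapping their assigned gene and 48.9% for peaks overlapping 1 gene. The share of expressed genes with a peak (77.2%) was 70.0% from 0.1 FPKM, 75.1% from 10 FPKM, 72.9% at a false discovery rate of 0.01 or less, 73.7% at a fold of 2 or more, 79.0% among RefSeq symbols, and 77.1 to 77.2% without 1 control input. In added settings it was 84.9% with any peak in the span and 60.2% with peaks on that gene alone. Overlap with the list after silencing (82.6%) was 72.1% when at least 50% of the exonic bases had to be shared, 80.5% on the same strand, 83.7% by whole spans, 91.8% for control peaks at a false discovery rate of 0.01 or less and 74.98% when the other list was so restricted.

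The 337 calls among genes with a control peak became 55 with no filter on low values, where 27411 genes were tested, 513 with quantile normalization and 52 with a replicate block, whose numbers do not pair the libraries. Leaving out 1 library gave 23 to 2100. In added settings, leaving out both libraries of high mitochondrial mRNA gave 2381, and taking them as a block gave 1501. The causes were not tested. Calls over all tested genes moved alike, from 443 to 82 without the filter, 672 with quantile normalization and 77 with the block. Depth is unknown, and low genes with recurring fold values are the least certain peaks.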
